A study of Mus musculus with 3 samples.

Results

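The IL-1 receptor family cluster of mouse chromosome 1 holds 6 receptor genes that lie head to tail on the plus strand, in the order Il1r2, Il1r1, Il1rl2, Il1rl1, Il18r1 and Il18rap. H3K36me3, the mark that Setd2 places on histone H3 along transcribed genes, was read over these genes in regulatory T (Treg) cells from spleen and large intestine (LI). The members were all 6 genes of the cluster among 21911 protein-coding genes, and 64 of the 120910 deposited peaks had their midpoint in the annotated body of 1 of them. Il1rl1 and its 2 downstream neighbours Il18r1 and Il18rap carried 62 of the 64 peaks and Il1r2 the other 2, whereas Il1r1 and Il1rl2 had none. The summed H3K36me3 was 2.41-fold higher in LI than in spleen at Il1rl1, 2.25-fold at Il18rap and 1.48-fold at Il18r1.

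Receptors of this family sit in the membrane with a signalling domain of the Toll/IL-1 receptor type on the inside, and signal once a ligand has brought a binding chain and an accessory chain together. Il1rl1 encodes ST2, the receptor for the alarmin IL-33, and Il18r1 and Il18rap encode the binding and accessory chains of the IL-18 receptor. Il1r1 encodes the signalling receptor for IL-1, Il1r2 a decoy receptor for IL-1 that lacks a signalling domain, and Il1rl2 the receptor for IL-36. ST2 marks a set of GATA3+ Treg cells that is found in barrier tissues such as the gut, where IL-33 released from damaged cells acts on them.

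Both libraries came from CD3+CD4+Foxp3-YFP+ cells of adult C57BL/6 Foxp3Cre-YFP mice, in which the Foxp3 locus drives a fusion of YFP and Cre, so that cells of both tissues carried this allele and no gene was deleted. The cells of 7 male and 7 female mice were pooled, and 1 library was made per tissue, which leaves no replicate and no test of a difference. An input library of splenic Treg cells was not analysed here. The gate takes all Treg cells, so a larger share of ST2+ cells and more mark per cell cannot be told apart. Values are deposited RPKM, the read coverage of a peak per kilobase, scaled to sequencing depth. Peaks were called in each tissue and then merged, so a region weak in 1 tissue could enter through the other alone. The values do not tell which tissue called a peak, and counts of peaks higher in LI can depend on this. A coverage of 1 read was worth 1.69 RPKM in spleen and 1.31 RPKM in LI. If the coverage tracks had bins of 20 bp, this corresponds to 29627000 and 38097000 mapped reads. Ratios are log2 values of LI over spleen after each library was scaled to its total over all peaks, with an approximate 95% interval that covers counting error only.

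The markers of the sorted cells were marked in both tissues: each of the 6 Treg and T cell genes had peaks, and the list summed to 1777 RPKM in spleen and 1475 RPKM in LI. Of the 6 genes 3 were higher in LI and 3 in spleen, with Foxp3 at 133 RPKM in spleen and 156 RPKM in LI (log2 ratio 0.19, interval -0.02 to 0.40) and Ctla4 at 66.1 and 103 RPKM (0.59, interval 0.29 to 0.89). Ikzf2, which encodes Helios, had 1205 RPKM in spleen and 851 RPKM in LI (-0.55, interval -0.66 to -0.43), and Cd3e had 51.8 and 40.1 RPKM (-0.41, interval -0.82 to -0.01). Of 6 genes that define mast cells and group 2 innate lymphoid cells, which also bear ST2, Cpa3, Fcer1a, Ms4a2, Il13 and Il5 had no peak. Kit had 1 peak at 1.35 RPKM in spleen and 7.48 RPKM in LI, and the list summed to these values. Of 5 epithelial genes, Krt8, Krt20 and Cdh1 had no peak, and the list summed to 29.9 RPKM in spleen and 59.8 RPKM in LI, most of it at Epcam, with 25.3 RPKM in spleen and 47.2 RPKM in LI. The 5 myeloid genes summed to 29.7 RPKM in spleen and 31.3 RPKM in LI, with none at Lyz2, Itgam and Adgre1. Of the B cell genes, Ms4a1 had no peak, Cd79a had 47.2 RPKM in spleen and 29.8 RPKM in LI (log2 ratio -0.70, interval -1.36 to -0.04), Cd79b had 8.96 and 13.7 RPKM and Pax5 4.05 and 9.91 RPKM. Of the 2 CD8 T cell genes, Cd8a had no peak and Cd8b1 had 21.1 RPKM in spleen and 9.46 RPKM in LI. The part of the signal of other cell types in the differences at the cluster was not tested.

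The bases of 3 member peaks in the mm10 genome are given on the plus strand with CpG dinucleotides in capitals. A link of sequence to signal was not tested. The first is the Il1rl1 intron peak with the highest LI value, chr1:40443842-40444088, at 4.26 RPKM in spleen and 15.4 RPKM in LI. The second is the Il18rap intron peak chr1:40523411-40523676, the only member peak listed at 0 in a library, with 12.0 RPKM in LI. The third is the central 300 bases, chr1:40485681-40485980, of the Il18r1 intron peak that was higher in spleen, at 15.9 RPKM against 10.3 RPKM in LI.
Il1rl1 intron peak: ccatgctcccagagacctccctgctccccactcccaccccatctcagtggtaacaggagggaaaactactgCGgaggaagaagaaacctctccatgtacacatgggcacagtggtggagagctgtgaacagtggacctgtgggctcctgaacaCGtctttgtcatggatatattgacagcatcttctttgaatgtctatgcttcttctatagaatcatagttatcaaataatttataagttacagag
Il18rap intron peak: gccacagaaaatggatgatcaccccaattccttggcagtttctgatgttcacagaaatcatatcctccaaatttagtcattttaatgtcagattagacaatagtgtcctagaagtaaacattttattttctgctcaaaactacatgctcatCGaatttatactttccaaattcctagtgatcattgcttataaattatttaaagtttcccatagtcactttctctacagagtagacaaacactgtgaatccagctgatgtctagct
Il18r1 intron peak: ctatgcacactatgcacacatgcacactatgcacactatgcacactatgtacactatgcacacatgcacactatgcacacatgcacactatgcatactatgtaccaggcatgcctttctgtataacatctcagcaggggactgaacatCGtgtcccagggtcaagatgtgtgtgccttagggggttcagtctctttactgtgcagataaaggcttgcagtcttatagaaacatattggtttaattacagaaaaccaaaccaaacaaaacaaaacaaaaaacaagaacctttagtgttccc
They hold 2, 1 and 1 CpG, and none touches an annotated exon of the 6 genes. The GC content was 46.6% in the Il1rl1 peak, 34.6% in the Il18rap peak and 42.0% in the Il18r1 stretch. The Il18r1 stretch carries 9 copies of the unit ATGCACAC, and the other two peaks carry 0.

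**Figure D1:**
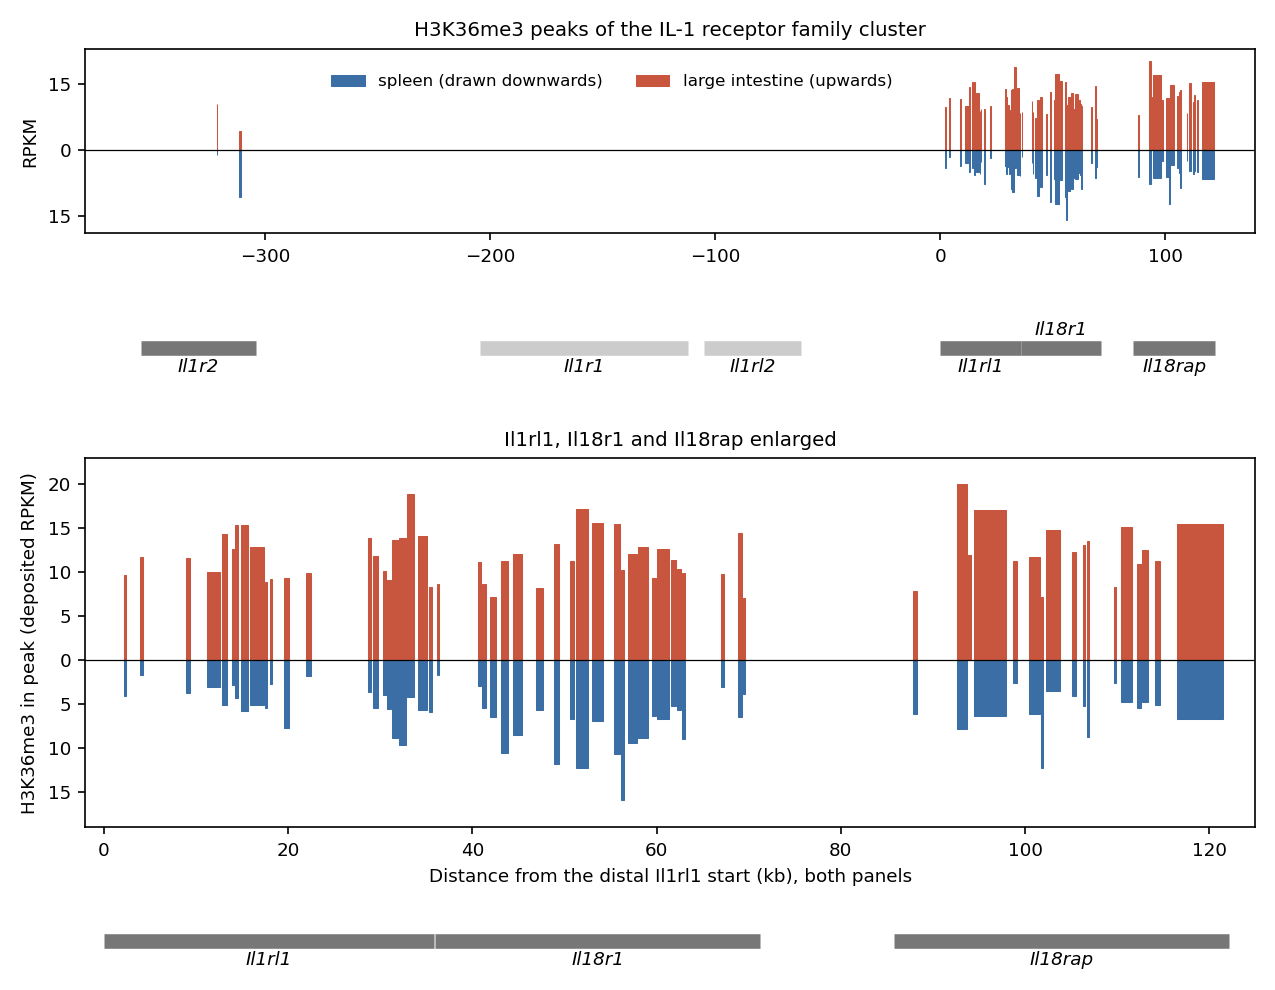
H3K36me3 in each member peak in RPKM, LI upwards and spleen downwards, against the distance in kb from the distal Il1rl1 start, with gene bodies as bars below (dark with peaks, light without). The upper panel shows all 6 genes and the lower panel the 62 peaks of Il1rl1, Il18r1 and Il18rap, with a gap of 18.3 kb without peaks between the latter 2.

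Along the chromosome, 62 of the 64 peaks lay in a stretch of 119 kb, from the first Il1rl1 peak at position 40431733 to the last Il18rap peak at 40551098. Within it the longest break without a peak was 18.3 kb, between Il18r1 and Il18rap, and the 2 Il1r2 peaks lay upstream of it. The sum over the 62 peaks of the stretch was 369 RPKM in spleen and 741 RPKM in LI. Of the 62 peaks, 60 were higher in LI, beside 48.9% of all peaks, a count that can depend on which tissue called them. Upstream of this stretch no peak was found over 313 kb, a distance that takes in all of Il1r1 and Il1rl2 and the end of Il1r2. Downstream no peak was found over 222 kb, up to Mfsd9. None of the 5 gaps between neighbouring members, which measure 99848, 7352, 62007, 136 and 14507 bp, held a peak midpoint. That is common: of 14244 gaps of at least 5 kb between neighbouring protein-coding genes, 83.8% held none. A body without a peak is common as well, since 54.3% of the 21911 protein-coding genes had no peak midpoint. The absence of Il1r1 (40225080 to 40317257) and Il1rl2 (40324610 to 40367562) from the peak set says that no peak was called in either tissue, and gives no level for them.

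Genes on either side were read in the same way. Within 500 kb there were 9 other protein-coding genes, and 6 of them (Creg2, Rfx8, Gm3646, Slc9a4, Slc9a2 and Tmem182) had no peak. Map4k4, a kinase gene 47.8 kb upstream of the cluster, had 32 peaks with a sum of 411 RPKM in spleen and 397 RPKM in LI, a log2 ratio of -0.10 (interval -0.24 to 0.04). Rnf149, further upstream, had 18 peaks with 180.0 RPKM in spleen and 171 RPKM in LI, a log2 ratio of -0.12 (-0.39 to 0.16). Mfsd9, 220.3 kb downstream, had 4 peaks with 41.4 RPKM in spleen and 49.4 RPKM in LI, a log2 ratio of 0.21 (-0.37 to 0.78). The intervals of all 3 include 0, and those of Map4k4 and Rnf149 end below that of Il1rl1, Il18r1 and Il18rap. The 100 kb before the cluster held 21 peaks, 19 of them in Map4k4, at 314 RPKM in spleen and 308 RPKM in LI (log2 ratio -0.07, interval -0.22 to 0.08), and the 100 kb after it held none.

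Il1rl1, the ST2 gene (ENSMUSG00000026069.15, mm10 chromosome 1, 40429570 to 40465415), had 22 peaks, 12 in introns, 7 that touch an exon and 3 in the 3′ UTR of the long transcript. Among the 7, the peaks chr1:40447073-40447324 and chr1:40447585-40447836 lie between the stop codon (40446704) and the end (40448148) of the short transcript described below. Their sum was 106 RPKM in spleen and 265 RPKM in LI, a log2 ratio of 1.27 (interval 0.98 to 1.56). All 22 peaks were higher in LI, and 16 of them by more than 2-fold. Over all peaks of the table, 48.9% were higher in LI after scaling and 9.00% were more than 2-fold higher there. Of the 1822 protein-coding genes with at least 20 peaks, 1.32% (24 genes) had every peak higher in LI, Il1rl1 among them. Peaks of 1 gene lie in the same cells and the same libraries and are not replicates. As peaks called in either tissue were kept, these counts can also depend on which tissue called them. The median over all member peaks was 5.50 RPKM in spleen and 11.7 RPKM in LI, beside 10.4 and 10.5 RPKM over all peaks.

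Single Il1rl1 peaks ranged from 1.69 to 9.71 RPKM in spleen, with a median of 4.66, and from 8.30 to 19.0 RPKM in LI, with a median of 11.8, so that the ranges overlapped only between 8.30 and 9.71 RPKM. The lowest spleen value, 1.69 RPKM, is a mean coverage of 1 read over the 298 bp of an intron peak (chr1:40433523-40433820), which stood at 11.7 RPKM in LI. The highest LI value, 19.0 RPKM, was in a 663-bp peak of the 3′ UTR (chr1:40462532-40463194) with 4.21 RPKM in spleen. The smallest difference was in an intron peak (chr1:40449112-40449646) at 7.75 RPKM in spleen and 9.32 RPKM in LI, a log2 ratio of 0.21. The standard error of this ratio from counting was 0.55, so it did not differ from 0 beyond counting error. The peak with the highest sum of both libraries, over the stop codon of the long form, had 9.71 RPKM in spleen and 13.9 RPKM in LI and a log2 ratio of 0.45. A summary by that peak alone would thus be lower than that by all peaks.

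Il1rl1 is read from a distal and a proximal promoter, and gives a long transcript for the membrane receptor and a short one for a soluble receptor that binds IL-33 without signalling. In the annotation, the short coding transcripts end at 40448148, and the long ones start 10057 bp or more past the distal start. The 11 peaks up to the end of the short form, 3 of them before the first start of the long form, summed to 43.8 RPKM in spleen and 132 RPKM in LI (log2 ratio 1.53, interval 1.05 to 2.02). The 11 peaks past it, where only the long form runs, summed to 62.6 RPKM in spleen and 133 RPKM in LI (log2 ratio 1.04, interval 0.69 to 1.39). The difference between these ratios was 0.50 with an interval of -0.10 to 1.09, so that it was not larger than counting error. The 3 intron peaks between the distal start and the first start of the long form, a stretch picked after the values were seen, had 4.08, 1.69 and 3.77 RPKM in spleen and 9.69, 11.7 and 11.7 RPKM in LI. Each of the 3 was higher in LI, with a log2 ratio of their sum of 1.70 (0.51 to 2.88).

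Il18r1, which encodes the IL-18 binding chain (ENSMUSG00000026070.15, 40465552 to 40500854), lies 136 bp past the end of Il1rl1 and had 23 peaks. Their sum was 170.5 RPKM in spleen, the highest of the 6 members there, and 260.45 RPKM in LI, a log2 ratio of 0.56 (interval 0.34 to 0.79). Of the peaks, 22 were higher in LI and 6 of these by more than 2-fold, beside 48.9% and 9.00% of all peaks. Single peaks ranged from 1.75 to 15.9 RPKM in spleen, with a median of 6.70, and from 7.12 to 17.3 RPKM in LI, with a median of 11.3. The values of the 2 tissues overlapped between 7.12 and 15.9 RPKM. The largest ratio, 1.99, was in the peak just past the start (chr1:40465727-40465946), with 1.75 RPKM in spleen and 8.70 RPKM in LI. The intron peak printed above was the only one higher in spleen, with a log2 ratio of -0.65, and it was also the highest spleen peak of the cluster. The standard errors from counting of these 2 ratios were 1.52 and 0.57, so neither differed from 0 beyond counting error. The next peak upstream had 10.7 RPKM in spleen and 15.5 RPKM in LI.

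Il18rap, which encodes the accessory chain of the IL-18 receptor (ENSMUSG00000026068.11, 40515362 to 40551705), had 17 peaks with a sum of 92.2 RPKM in spleen and 215 RPKM in LI, a log2 ratio of 1.17 (interval 0.87 to 1.47). Of these, 16 were higher in LI and 12 by more than 2-fold, the peak listed at 0 in spleen among them, for which no fold is given. Over all peaks the shares were 48.9% and 9.00%. Single peaks ranged from 0 to 12.25 RPKM in spleen, with a median of 5.17, and from 7.16 to 20.1 RPKM in LI, with a median of 12.3, with an overlap between 7.16 and 12.25 RPKM. The highest LI value of the cluster, 20.1 RPKM, was in a 1056-bp intron peak (chr1:40522242-40523297) that had 7.85 RPKM in spleen. The longest peak, 5048 bp at the 3′ end of the gene, had 6.74 RPKM in spleen and 15.5 RPKM in LI, a log2 ratio of 1.10. The highest spleen value, 12.25 RPKM, was in a 236-bp peak (chr1:40531284-40531519) that had 7.16 RPKM in LI, the lowest LI value of the gene. The log2 ratio of that peak, -0.78 with a standard error from counting of 0.79, did not differ from 0 beyond counting error.

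**Figure D2:**
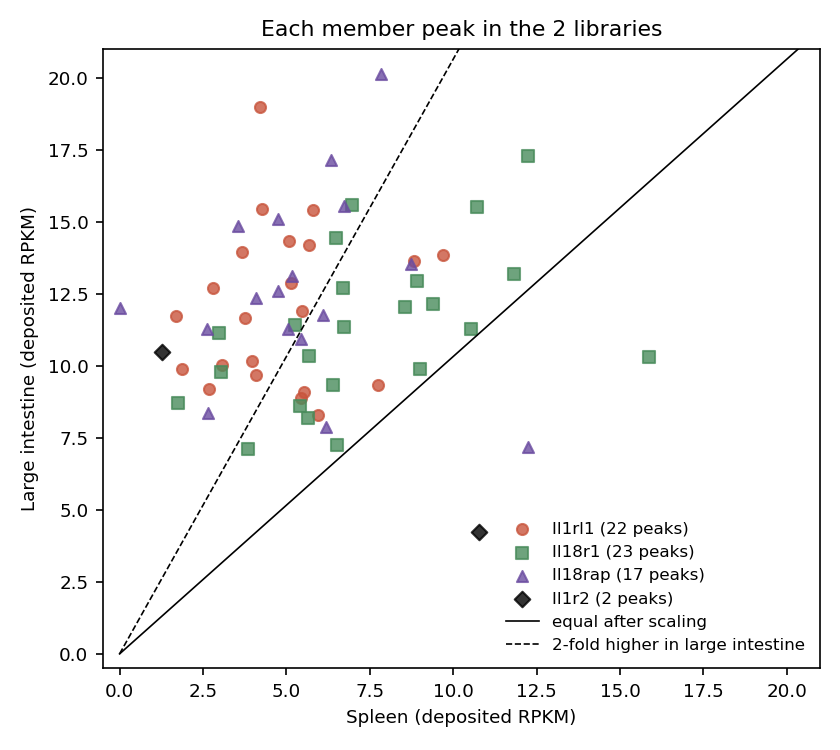
Each of the 64 member peaks by its RPKM in spleen (x axis) and in LI (y axis), with the line of equal values after scaling and the line of 2-fold higher values in LI. All but 3 peaks lie above the line of equal values, and most Il1rl1 and Il18rap peaks, but few Il18r1 peaks, lie above the 2-fold line.

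Il1r2, the decoy receptor gene (ENSMUSG00000026073.13, 40074079 to 40125231), had 2 peaks with values that went opposite ways. An intron peak (chr1:40107962-40108193) had 1.26 RPKM in spleen and 10.5 RPKM in LI, and a peak that touches an exon (chr1:40117979-40118545) had 10.8 RPKM in spleen and 4.23 RPKM in LI. The log2 ratios of these 2 peaks were 2.59 and -1.30, with standard errors from counting of 1.70 and 0.61. That of the intron peak thus did not differ from 0 beyond counting error. The sums were 12.0 RPKM in spleen and 14.7 RPKM in LI, a log2 ratio of 0.23 with an interval of -0.79 to 1.26. Weighting the peaks by length turned the ratio to -0.47, so no direction is given for the gene.

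Differences between the genes were compared with counting error alone. The log2 ratio of Il1rl1 was higher than that of Il18r1 by 0.70 (interval 0.34 to 1.07), and that of Il18rap was higher than that of Il18r1 by 0.61 (0.23 to 0.98). Il1rl1 and Il18rap differed by 0.10 (-0.32 to 0.51), an interval that takes in 0. The gene with the smaller ratio thus lay between those with the larger ones on the chromosome. Over the 64 peaks together the sum was 381 RPKM in spleen and 755 RPKM in LI, a log2 ratio of 0.94 (0.79 to 1.09). Of the 64 peaks, 61 (95.3%) were higher in LI and 35 (54.7%) by more than 2-fold, beside 48.9% and 9.00% of all peaks. In spleen 1 was more than 2-fold higher. These counts can depend on which tissue called the peaks.

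Of 9438 protein-coding genes whose peaks summed to 20 RPKM or more in the 2 libraries together, 3.22% were more than 2-fold higher in LI and 1.81% more than 2-fold higher in spleen. Among the 4 members that passed this minimum, Il1rl1 and Il18rap were past 2-fold in LI and none in spleen. The ratio of Il1rl1 was above that of 98.1% of these genes, that of Il18rap above 97.7%, that of Il18r1 above 90.4% and that of Il1r2 above 75.6%. The median ratio over all 9438 genes was 0.00, with the middle 50% of genes between -0.20 and 0.23.

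**Figure D3:**
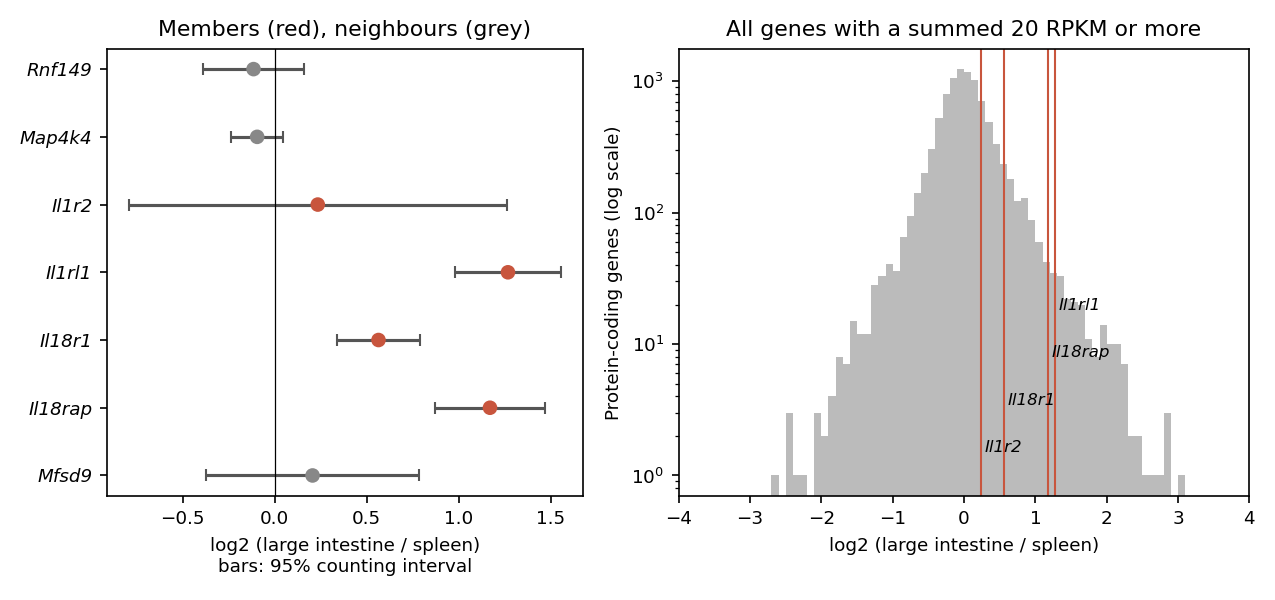
Left, the log2 ratio of LI over spleen with its 95% counting interval for the members with peaks (red) and for the neighbouring genes with peaks (grey), in chromosome order. Right, the number of protein-coding genes (log scale) by log2 ratio, with red lines at the members, of which Il1rl1 at 1.27 and Il18rap at 1.17 lie furthest to the right.

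Levels per length of the gene body count bases outside peaks as 0. They thus also depend on the share of the body in peaks, from 1.56% at Il1r2 to 48.8% at Il18rap. Compared in this way, the level in spleen was highest at Il18r1, with 3.34 RPKM, then Il18rap with 2.86 RPKM, Il1rl1 with 1.72 RPKM and Il1r2 with 0.125 RPKM. Il18r1 and Il18rap did not differ beyond counting error in spleen (log2 difference of levels 0.22, interval -0.01 to 0.45). In LI, Il18rap was highest with 7.17 RPKM, followed by Il18r1 with 5.03 RPKM, Il1rl1 with 4.225 RPKM and Il1r2 with 0.0944 RPKM. In LI the intervals of all 3 differences between neighbours in this order were above 0, the smallest being that of Il18r1 over Il1rl1 (0.25, interval 0.08 to 0.42). Over peak bases alone, the LI mean was 12.425 RPKM at Il1rl1 and 12.183 RPKM at Il18r1, the reverse order. In spleen the mean of Il1r2 over peak bases lay between those of Il18r1 (8.09 RPKM) and Il18rap (5.87 RPKM). Among all protein-coding genes with a peak, the level per body length of Il1rl1 was above 30.7% of genes in spleen and 48.3% in LI. That of Il18rap was above 40.3% and 63.7%. The Il1rl1 values rest on about 167 reads in spleen and 527 in LI, if each read stands for a fragment of 200 bp.

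The mark was also followed along the genes. In 3 equal segments of Il1rl1 from 5′ to 3′, the mean over peak bases was 3.09, 4.89 and 6.17 RPKM in spleen and 10.5, 12.4 and 13.4 RPKM in LI. It was thus lowest in the first and highest in the last segment in both tissues. In Il18r1 the middle segment was highest in both, with 9.97 RPKM in spleen and 14.2 RPKM in LI. In Il18rap the first segment was highest in both, with 6.31 RPKM in spleen and 16.6 RPKM in LI. The log2 ratios of the 3 Il1rl1 segments were 1.69, 1.35 and 1.05 in that order. No difference in ratio between segments was beyond counting error in any of the 3 genes, and the widest was that between the first and last segments of Il1rl1, at 0.63 with an interval of -0.37 to 1.64.

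**Figure D4:**
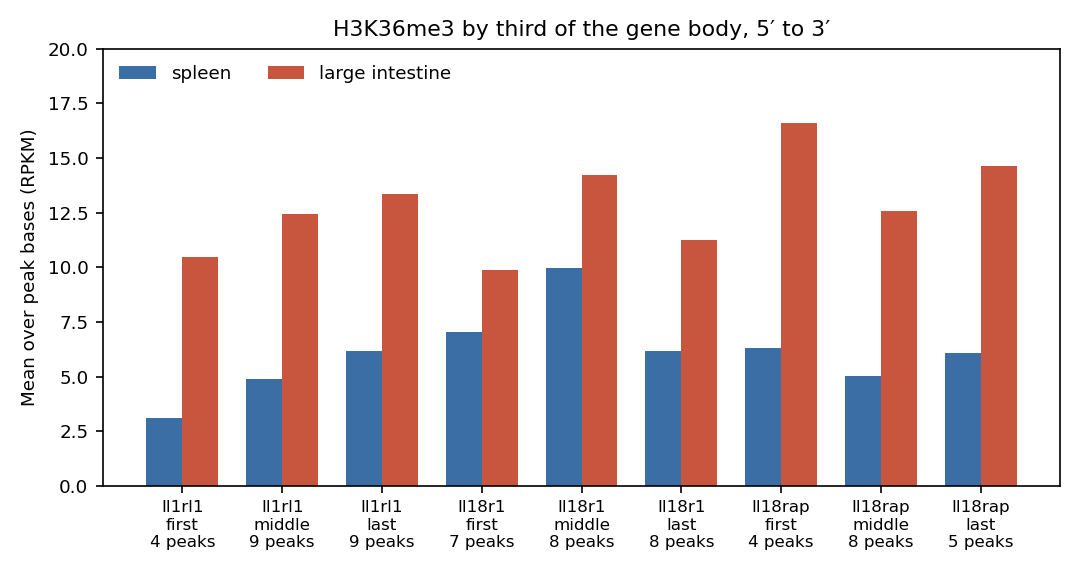
Mean H3K36me3 over the peak bases (RPKM) in 3 equal segments of Il1rl1, Il18r1 and Il18rap from 5′ to 3′, in spleen and in LI, with the number of peaks under each pair of bars and no error bars as there is 1 library per tissue. The LI bar is taller in each of the 9 segments.

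Peaks of introns and of exons were also taken apart. At Il1rl1 the 12 intron peaks summed to 57.6 RPKM in spleen and 145 RPKM in LI (log2 ratio 1.28). The 7 peaks that touch an exon, which take in those past the stop codon of the short form, summed to 33.0 and 79.0 RPKM (1.20). The 3 peaks in the 3′ UTR of the long form summed to 15.8 and 41.4 RPKM (1.32). The 12 intron peaks of Il18rap had a ratio of 1.35 and its 5 peaks that touch an exon 0.77, and at Il18r1 these were 0.51 over 13 and 0.62 over 9 peaks. Across all peaks of the table the ratio rose with GC content, by 0.32 on the log2 scale per 10 percentage points. The median GC content was 45.2% in Il1rl1 peaks, 43.5% in Il18r1 peaks and 44.2% in Il18rap peaks, below the 46.5% of all peaks. After correction for GC the ratios were 1.34 at Il1rl1, 0.66 at Il18r1 and 1.27 at Il18rap, each higher than without it.

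The 250 bases before 3 transcript starts were taken from RefSeq for GRCm38.p6, the assembly of mm10. RefSeq windows were found for all 6 members, and those printed are the distal and proximal Il1rl1 starts and the Il18rap start, all on the plus strand. Capitals mark GATA with A or T before it and A or G after it, read on either strand, the letters that GATA factors such as GATA3 bind. The windows are chr1:40429320-40429569, chr1:40439379-40439628 and chr1:40515112-40515361, in this order.
Il1rl1 distal: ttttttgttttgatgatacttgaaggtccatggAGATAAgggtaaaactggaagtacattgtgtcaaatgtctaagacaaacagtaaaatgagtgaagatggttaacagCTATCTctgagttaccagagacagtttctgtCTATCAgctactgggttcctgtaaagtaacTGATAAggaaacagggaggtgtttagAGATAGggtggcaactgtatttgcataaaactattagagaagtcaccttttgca
Il1rl1 proximal: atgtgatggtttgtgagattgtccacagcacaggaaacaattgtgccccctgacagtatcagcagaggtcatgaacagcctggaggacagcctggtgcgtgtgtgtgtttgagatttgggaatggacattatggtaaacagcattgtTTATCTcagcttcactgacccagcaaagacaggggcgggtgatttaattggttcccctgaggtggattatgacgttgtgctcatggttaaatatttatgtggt
Il18rap: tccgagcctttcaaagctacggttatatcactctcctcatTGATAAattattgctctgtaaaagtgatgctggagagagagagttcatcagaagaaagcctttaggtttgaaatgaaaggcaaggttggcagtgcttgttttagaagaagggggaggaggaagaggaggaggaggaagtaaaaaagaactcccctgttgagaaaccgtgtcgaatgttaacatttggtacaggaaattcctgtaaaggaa
The distal Il1rl1 window holds 5 matches and the other two hold 1 each. Of 32851 RefSeq windows of this length, 26.5% hold at least 1 match and 0.0426% (14 windows) hold at least 5, a number chosen after the distal window had been read. A match is a run of letters and says nothing of whether a factor was bound. Among the members, matches are given for Il1rl1 and Il18rap only, which are those past 2-fold in LI. The windows of Il18r1 and the other members were not looked at singly, so a link of matches to the ratio was not tested. None of the 3 windows held a peak midpoint, the first Il1rl1 peak lying 2262 bp past the distal start and the first Il18rap peak 2267 bp past its start, each counted to the peak's midpoint.

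Ligands and other receptors of the family had few peaks in these Treg cells, where 54.3% of all protein-coding genes had no peak midpoint. For a gene without a peak no level is given. Of 11 ligands and soluble regulators (IL-33, IL-18, IL-1 and IL-36 genes among them), 10 had no peak, and Il18bp, which encodes a soluble inhibitor of IL-18, had 1 peak at 11.1 RPKM in spleen and 14.7 RPKM in LI (log2 ratio 0.34, interval -0.41 to 1.10). Of 4 receptor genes elsewhere in the genome, Il1rap, the accessory chain shared by ST2 and the IL-1 receptor, Il1rapl1 and Il1rapl2 had no peak. Sigirr, a negative regulator of the family, had 1 peak at 26.3 RPKM in spleen and 22.8 RPKM in LI (log2 ratio -0.24, interval -0.41 to -0.07).

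The shared signalling chain from the adaptor Myd88 to the IκB kinase complex was marked in both tissues, with peaks at all 16 genes. Its median ratio was 0.06, beside 0.00 over all genes, and 1 of the 16 was past 2-fold in LI and none in spleen, beside 3.22% and 1.81% of all genes. That gene was Irak3, which encodes the inhibitory kinase IRAK-M, with 5 peaks at 13.2 RPKM in spleen and 61.7 RPKM in LI, a log2 ratio of 2.14 (interval 1.23 to 3.05). Myd88 itself had 20.8 RPKM in spleen and 23.6 RPKM in LI (0.14, interval -0.17 to 0.44).

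Of 9 genes tied to ST2+ Treg cells, Pparg had no peak, and the other 8 all had a ratio above 0, with a median of 0.98, beside 50.7% of all 9438 genes above 0 and their median of 0.00. Of these, 4 passed 2-fold in LI and none in spleen, beside 3.22% and 1.81% of all genes. They were Il10, an anti-inflammatory cytokine, with 1 peak at 3.68 RPKM in spleen and 18.4 RPKM in LI (2.13, interval 1.68 to 2.58), and Klrg1, a receptor of effector Treg cells, with 26.3 RPKM in spleen and 72.3 RPKM in LI (1.40, interval 0.77 to 2.03). Areg, the epidermal growth factor receptor ligand of tissue repair, had 28.1 RPKM in spleen and 66.9 RPKM in LI (1.19, interval 0.56 to 1.83). Rora, a nuclear receptor, had 57 peaks with 331 RPKM in spleen and 767 RPKM in LI (1.17, interval 1.03 to 1.30). Gata3, the transcription factor that acts with ST2, had 159 RPKM in spleen and 192 RPKM in LI, a ratio of 0.23 with an interval (0.03 to 0.43) that ends below that of Il1rl1. The other 3 genes were Ccr8 at 0.79 (0.27 to 1.31), Irf4 at 0.40 (0.17 to 0.64) and Batf at 0.20, with an interval of -0.06 to 0.47 that takes in 0.

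**Figure D5:**
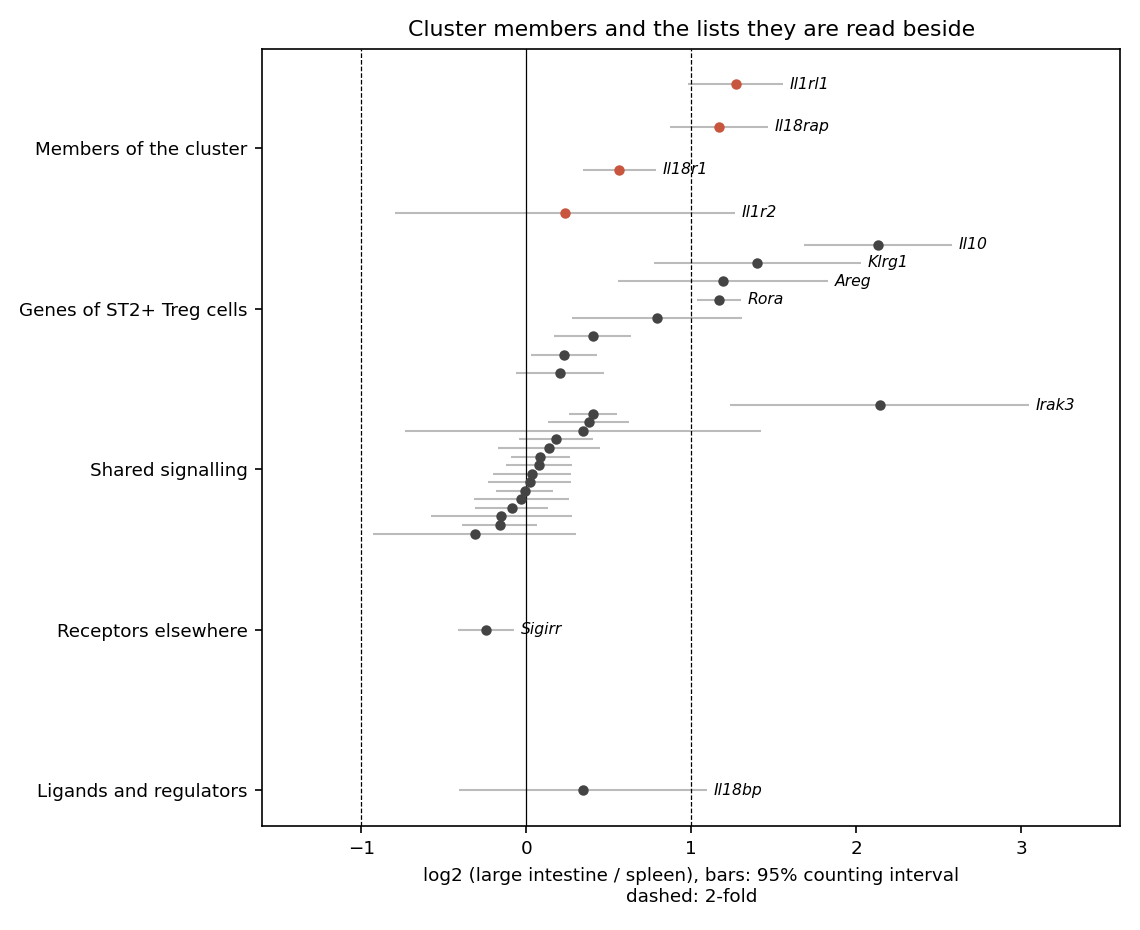
The log2 ratio of LI over spleen with its 95% counting interval for each gene of 20 RPKM or more in the cluster and in 4 lists, with 2-fold as dashed lines. Il1rl1, Il18rap, 4 genes of ST2+ Treg cells and Irak3 lie past 2-fold in LI, and no gene shown lies past 2-fold in spleen.

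The 3 genes whose pair of log2 sums in the 2 libraries was nearest to that of Il1rl1 were Scpep1, Wdfy2 and Prdm1, at Euclidean distances of 0.06, 0.06 and 0.22 on the log2 scale over these 2 values only. Scpep1, a serine carboxypeptidase gene, had 22 peaks with 106 RPKM in spleen and 276 RPKM in LI. Wdfy2 had 20 peaks with 111 RPKM in spleen and 259 RPKM in LI. Prdm1, which encodes the transcription factor Blimp-1, had 18 peaks with 93.9 RPKM in spleen and 244 RPKM in LI.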

How the data were processed

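H3K36me3 ChIP-seq of spleen and LI Treg cells was analysed from the merged peak table. Per the study's methods and the submitters' processing notes, the authors checked 75-nt reads with FastQC, aligned them to mm10 with Bowtie2, called peaks in each tissue against the input with MACS2, merged them with bedtools and deposited the mean RPKM coverage per peak from tracks scaled to RPKM. These values are not whole, although the deposited table bears the name of raw counts. Multiplied by the length of its peak, a value gave whole multiples (within 0.05) of a fixed step for 100% of low products in LI and 99.996% in spleen. The depth was derived from this step with bins taken as 20 bp, which the step alone does not show. How far reads were extended is not given in the sources used here, so reads per peak were not recovered and no count test was run.

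Peaks were assigned to GENCODE M21 bodies by midpoint with Python 3.11.15, and their values were summed per gene, as the authors did. The log2 ratio had a pseudocount of 0.5 RPKM, was centred on that of the column totals (0.05), and understates the change of low genes. Genes over all had a minimum of 20 RPKM over both libraries. The 95% interval took reads as 200 bp and as independent molecules. The ratio and interval were also run on simulated reads drawn under these same assumptions, which cannot show how far real libraries depart from them. The named genes were the 6 members, neighbours within 500 kb with at least 20 RPKM, list genes past 2-fold (else the highest and lowest) and the 3 nearest to Il1rl1. Members, gene lists and alternatives were chosen with earlier results of these data known, so that no list is independent support. Myd88, Gata3, Ccr8, Irf4, Batf, the marker genes and the single peaks given lie outside this rule and were named after their values were seen. A further marker gene is not reported here.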

Additional observations from a re-analysis of the deposited data

How the results depend on the processing

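No paired analysis was possible because each tissue has 1 library. Of 77 values under alternative settings, 7 moved beyond the counting interval or by more than 1.5 times and only Il1r2, whose interval takes in 0, changed sign, to -0.47 weighted by length and -1.30 by its strongest peak. The strongest peak of Il1rl1 gave 0.45. Genes past 2-fold in LI and in spleen numbered 468 and 307 with no minimum and 68 and 37 with a minimum of 200 RPKM, since other genes enter. Sigirr, the single receptor gene elsewhere with a peak, went to -0.48 with GC correction, and the cause was not tested. Elsewhere the ratio ranged from 1.21 to 1.45 at Il1rl1, 0.43 to 0.67 at Il18r1, 1.10 to 1.36 at Il18rap and 0.93 to 1.06 over the cluster, and 61 of 64 peaks were higher in LI with and without scaling and GC correction. Il1r2 had no peak of 1 kb and none by nearest transcript start. Intron peaks alone (1.28, 0.51 and 1.35 at the 3 genes) were added after the data were seen. With reads of 75 bp, also added afterwards, the Il1rl1 interval was 1.08 to 1.46. Depth limits single peaks, some of which had a mean coverage of about 1 read or less in spleen, and no difference between mice could be measured.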
